A study of Mus musculus with 3 samples.

Results

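Foxf2-bound regions were examined at 37 genes of the fibroblast growth factor (FGF) pathway: 22 genes encoding FGF ligands and related proteins, 5 encoding receptors and 10 encoding feedback inhibitors or transcriptional targets of the signal. A region was placed with an FGF gene when the nearest transcription start site (TSS) of any protein-coding gene to its midpoint belonged to that gene, in GENCODE basic transcripts of the mouse build mm10. By this rule 116 of the 25704 peaks on assembled chromosomes (0.451%) lay at FGF genes, 40 at ligands, 26 at receptors and 50 at feedback genes. They came from 2 anti-FLAG ChIP-seq libraries with 1 library of input chromatin as the control. All 3 were made from tongues of E12.5 mouse embryos that were homozygous (Foxf2FLAG/FLAG) for a 3xFLAG tag on the endogenous forkhead factor Foxf2, introduced by CRISPR/Cas9 editing, and no library from untagged embryos is among the samples. The labels state 75 tongues on each sample without saying whether that is per library or in all.

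The authors' table gave each peak a position, a score and a focus ratio (a fraction that describes how sharp the peak is), with no value for a single library. No spread between the ChIP libraries could therefore be given, the sequencing depth is unknown, and whether the libraries were pooled before peak calling is not given in the sources used here. All peaks had the same width, and scores ran from 10.1 to 243.9 with a median of 16.2. The score is the authors' own, on a scale that is not stated, and served only to rank and describe peaks within the list. Peaks and genes are not replicates of a condition, so no test was made. The main shares are given with exact (Clopper-Pearson) 95% intervals that cover counting only, beside the same share of the whole list. The nearest gene is a matter of position and does not show that Foxf2 regulates it. No expression was measured, so the tissue label was not checked against marker genes.

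FGF ligands bind receptor tyrosine kinases together with heparan sulfate and activate, among others, the RAS and ERK kinase cascade. The cascade induces ETS-family transcription factors such as Etv4 and Etv5, and it also induces its own inhibitors, the Sprouty and Spred proteins and the ERK phosphatase Dusp6. In the developing mouth, FGFs pass between epithelium and mesenchyme, and Foxf2 is a mesenchymal factor that, with Foxf1, restrains Fgf18 expression in the mouse palate.

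The sequence recognised by forkhead factors was searched on both strands in the central 200 bp of each peak as a core of 4 forms, GTAAACA or GTAAATA or ATAAACA or ATAAATA, of which GTAAACA is called the strict form and is part of the core count. A match is a description of the letters and not proof of a bound site. Central windows of the highest-scored peaks at Fgfr2, Spred2 and Fgf10 are shown in full because these peaks scored highest among the receptors, among the feedback genes and at the mesenchymal ligand gene Fgf10. Sequences are from the GRCm38 (mm10) genome, written 5′ to 3′ on the plus strand, with each core in capitals (the reverse complement of GTAAACA is TGTTTAC).
Fgfr2 at chr7:130279315-130279514: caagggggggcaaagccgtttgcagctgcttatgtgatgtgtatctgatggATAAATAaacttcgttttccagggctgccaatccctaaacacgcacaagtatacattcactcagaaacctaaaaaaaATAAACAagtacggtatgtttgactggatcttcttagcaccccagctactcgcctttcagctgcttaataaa
Spred2 at chr11:19748160-19748359: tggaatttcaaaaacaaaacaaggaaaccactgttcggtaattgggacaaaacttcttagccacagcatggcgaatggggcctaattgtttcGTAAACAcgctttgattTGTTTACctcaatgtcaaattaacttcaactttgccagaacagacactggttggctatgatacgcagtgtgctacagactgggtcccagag
Fgf10 at chr13:118805837-118806036: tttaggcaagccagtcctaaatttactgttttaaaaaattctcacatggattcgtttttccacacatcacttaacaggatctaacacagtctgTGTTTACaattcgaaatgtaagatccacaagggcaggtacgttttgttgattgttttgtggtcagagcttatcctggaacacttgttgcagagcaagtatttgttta

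The windows at Fgfr2 and Spred2 each held 2 cores and that at Fgf10 held 1. At Spred2 both were the strict form, one on each strand, and at Fgfr2 they were ATAAATA and ATAAACA. By contrast, the highest-scored peaks at the inhibitor genes Dusp6 and Spry2 had no core, and their windows are shown for comparison, with no capitals.
Dusp6 at chr10:99262976-99263175: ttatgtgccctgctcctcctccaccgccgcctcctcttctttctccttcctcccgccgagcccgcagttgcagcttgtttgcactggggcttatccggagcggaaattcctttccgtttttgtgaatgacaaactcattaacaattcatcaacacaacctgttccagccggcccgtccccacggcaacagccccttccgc
Spry2 at chr14:105736490-105736689: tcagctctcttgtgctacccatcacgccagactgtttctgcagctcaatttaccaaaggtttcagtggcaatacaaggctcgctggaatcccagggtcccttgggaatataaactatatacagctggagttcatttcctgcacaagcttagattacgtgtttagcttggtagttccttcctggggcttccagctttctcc

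Around the core nearest the midpoint, 30 bases are shown for 12 peaks of the genes that the results turn on, on the strand that carries the core and with the core in capitals. They cover the highest-scored peak of 9 genes and the second-highest of Fgf10, Fgfr2 and Etv1. Each is named by its nearest gene, which is uncertain for some of them, as given below. They let the reader compare the strict form at Fgfr1, Fgfr4, Spry1 and Etv5 with the ATAAACA form at Fgf9, Fgf20, Spred1 and Etv1.
Fgf9 at chr14:58300842-58300871, minus strand: agcgtttaaagATAAACAcactatagggaa
Fgf20 at chr8:40092720-40092749, plus strand: atggccagaacATAAACActgcctgattaa
Fgf10 at chr13:119029045-119029074, plus strand: aacttctcactGTAAACAagtataaaatct
Fgf7 at chr2:125973491-125973520, plus strand: catggactatgGTAAACAgtgggaaaatgg
Fgf18 at chr11:33077934-33077963, plus strand: gcagaatacaaATAAATAtaggtggaggga
Fgfr2 at chr7:130073958-130073987, plus strand: ttcaagtcaatGTAAACAcagcggctgact
Fgfr1 at chr8:25482786-25482815, plus strand: acaagccccctGTAAACAtattcttgacag
Fgfr4 at chr13:55172077-55172106, plus strand: ctgagtgcttcGTAAACAgcagcggctgtt
Spry1 at chr3:37552729-37552758, plus strand: ctgtaatacatGTAAACAgtgcaatatcat
Spred1 at chr2:117003070-117003099, plus strand: taaactgagctATAAACAgagttgactgcc
Etv1 at chr12:38844083-38844112, plus strand: aaatcagaaacATAAACAggaactggtggg
Etv5 at chr16:22439735-22439764, minus strand: ctgaagacaggGTAAACAagaggtgatggg

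At least 1 peak was found at 24 of the 37 FGF genes (64.9%, 95% interval 47.5 to 79.8), against 8173 of 21938 protein-coding genes (37.3%). By class, 11 of 22 ligand genes (50%, 28.2 to 71.8), 4 of 5 receptor genes (80.0%, 28.4 to 99.5) and 9 of 10 feedback genes (90.0%, 55.5 to 99.7) had a peak, and the intervals of the 3 classes overlap. The average was 3.14 peaks per FGF gene, against 1.17 per protein-coding gene. It was 1.82 for ligands, 5.2 for receptors and 5.0 for feedback genes. The receptor value rests on Fgfr2, which held 20 of the 26 receptor peaks, against 4 at Fgfr1, 1 each at Fgfr3 and Fgfr4 and 0 at Fgfrl1. At least 5 peaks lay at 8 FGF genes, against 7.05% of all genes, and these were Fgf9, Fgf10, Fgf1, Fgfr2, Etv1, Dusp6, Spred2 and Spry4. Between 2 and 4 peaks lay at 9 genes, 1 peak at 7, and none at 13. Fgfr2, Etv1, Fgf9 and Fgf10 together held 55 peaks (47.4% of those at FGF genes).

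**Figure D1:**
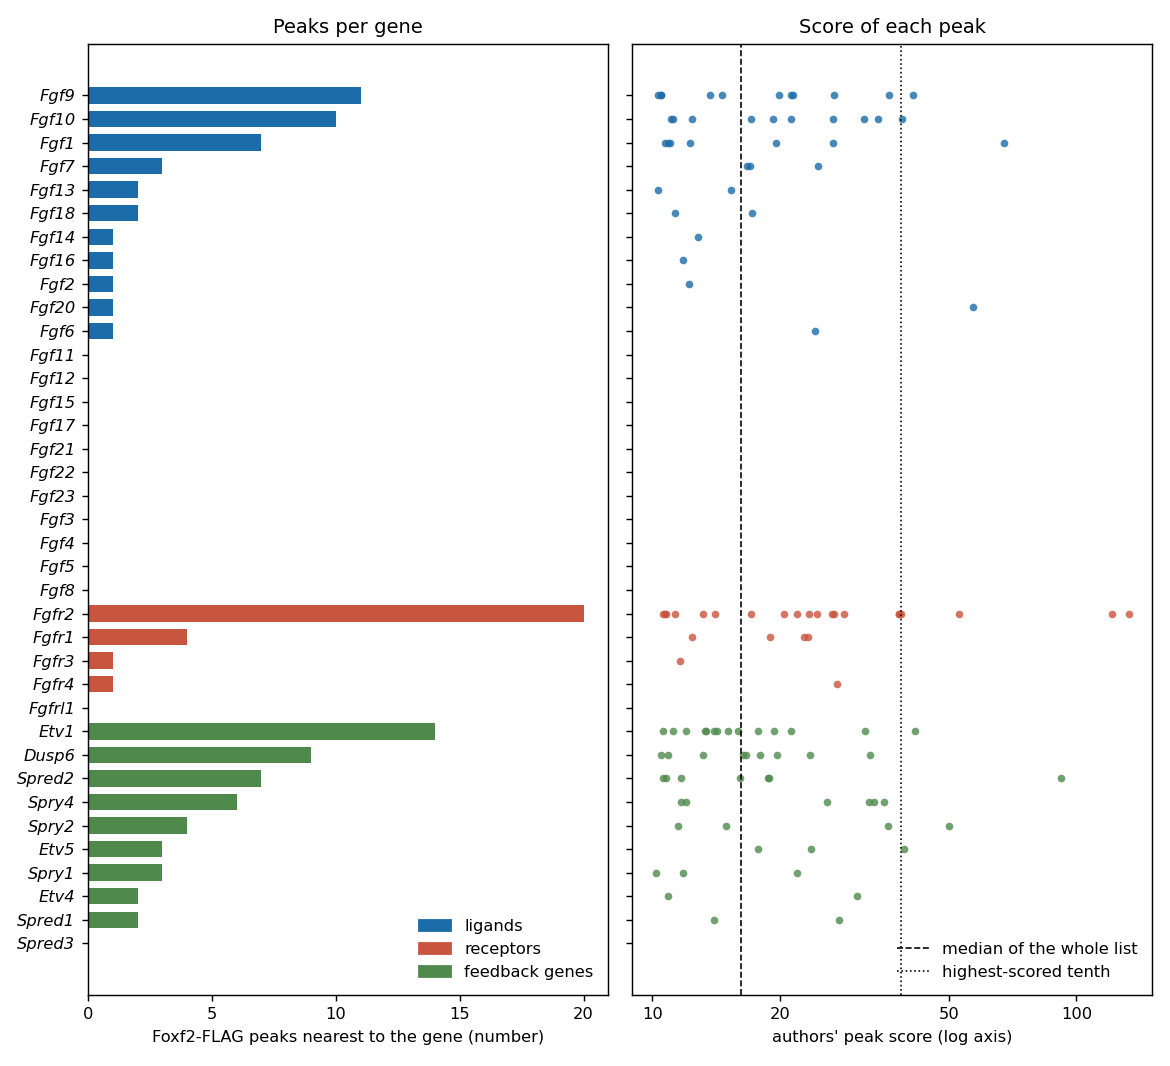
Number of Foxf2-FLAG peaks nearest to each of the 37 FGF genes (left) and the authors' score of each peak on a log axis (right), 1 point per peak, coloured by class. The dashed line is the median of the whole list (16.2) and the dotted line the lowest score among its highest-scored 10% (38.7). Fgfr2 has the most peaks (20) and the 2 highest scores (132.9 and 121.1), and 13 genes have none.

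The number of peaks went along with the room around a gene. The territory of a gene, the stretch nearest to its start sites, had a median of 140 kb for FGF genes against 47.0 kb for all protein-coding genes. By class the median was 72.0 kb for ligands, 62.4 kb for receptors and 191 kb for feedback genes. In territories under 50 kb, 1 of 11 FGF genes had a peak, against 16.9% of all genes. Between 50 and 200 kb the counts were 11 of 13 FGF genes against 50.8% of all genes, with a mean of 2.38 against 1.11 peaks per gene. At 200 kb and above they were 12 of 13 against 80.0%, with a mean of 6.46 against 4.89. Per length, FGF territories held 1.25 peaks per 100 kb (1.09 without Fgfr2), against 0.943 over the genome and 1.03 over the autosomes. Spry4 and Fgfr2 were the densest of the FGF genes, with 4.66 and 4.31 peaks per 100 kb, and Fgf14 the sparsest of those with a peak, with 0.102. The part of territory length in the higher share of FGF genes with a peak, or in the differences between the classes, was not tested.

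**Figure D2:**
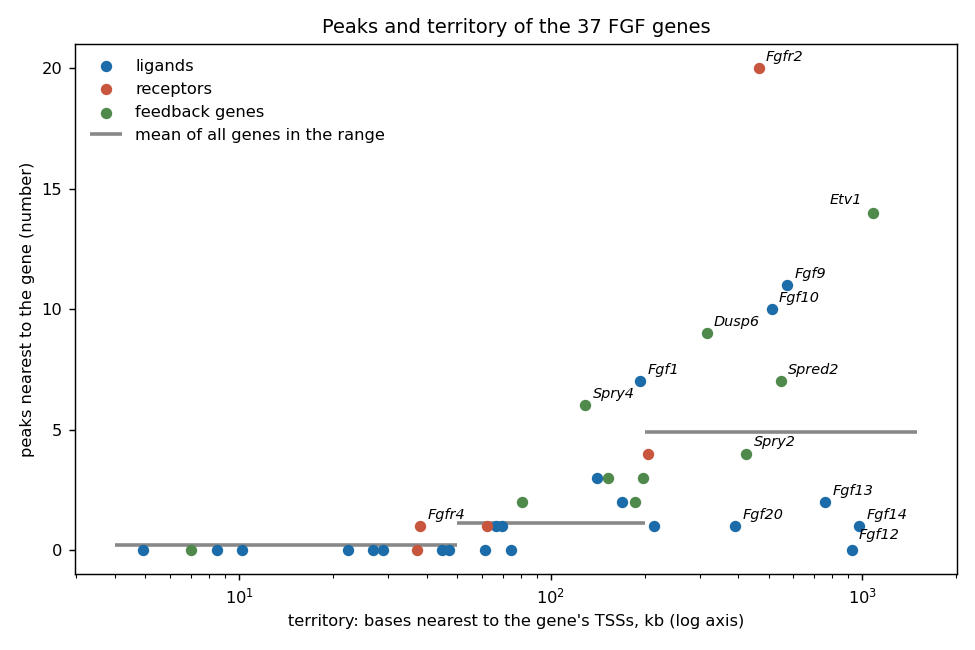
Number of peaks at each of the 37 FGF genes against the length of its territory (kb, log axis), 1 point per gene, with grey lines for the mean of all protein-coding genes in 3 ranges of territory (under 50 kb, 50 to 200 kb, and 200 kb and above). Fgfr2 (20 peaks) and Etv1 (14) stand above the grey line of their range, while Fgf12 (none), Fgf13 (2) and Fgf14 (1) stand below it despite territories of 923.8, 760.8 and 975.8 kb.

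Among the ligands, the 15 genes for secreted paracrine FGFs held 37 of the 40 peaks, at 9 genes. The genes for the endocrine FGFs, Fgf15, Fgf21 and Fgf23, which act at a distance with Klotho co-receptors, had none. Their territories were 26.9, 22.4 and 47.0 kb, and of all genes with territories under 50 kb only 16.9% had a peak. Of the 4 intracellular family members, which bind voltage-gated sodium channels and are not secreted, Fgf13 had 2 peaks and Fgf14 had 1, with scores of 10.3 to 15.3, while Fgf11 and Fgf12 had none.

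Fgf9, a ligand made by epithelia and mesothelia in several organs, had 11 peaks. All lay downstream of its TSS, from 24.0 to 406.3 kb away, and 9 of them lay past the end of the gene. Its scores were 41.1, 36.1, 26.9, 21.5, 21.2, 19.9, 14.6, 13.7, 10.5, 10.5 and 10.3, so that 6 of 11 lay above the median of the list. The highest, 225.8 kb downstream, fell at the start of the noncoding gene Gm33321, and the second, 280.2 kb downstream, lay in an intron of the same noncoding gene. A core was present in 9 of the 11, and the strict form in 2. The peaks 351.9 to 406.3 kb downstream lay 427.8 to 482.2 kb from the TSS of Micu2, so their gene is uncertain.

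Fgf10, the mesenchymal ligand that signals to epithelium through the Fgfr2 IIIb isoform, had 10 peaks, also all downstream of its TSS. Their scores were 38.9, 34.0, 31.5, 26.7, 21.2, 19.3, 17.1, 12.4, 11.2 and 11.1, and 7 were above the median. The highest lay 91.2 kb from the TSS, 13.8 kb past the end of the gene, and the second 314.4 kb from the TSS. The second lay 379.9 kb from the TSS of Nnt, so its gene is uncertain. Close to the TSS, peaks at 1.13 and 1.82 kb scored 26.7 and 19.3, the nearer one beside the start of the noncoding gene Gm16263. Cores were found in 8 of the 10 and the strict form in 5. The peak 76.9 kb downstream, with a score of 12.4, had its midpoint in an exon of Fgf10. Over all FGF peaks 3 midpoints (2.59%, 0.537 to 7.37) lay in an exon of any gene, against 6.05% of the list. Those at Fgf7 and Spry1 were also within 1 kb of a TSS, and the one at Spry1 lay in the noncoding gene Gm42922, upstream of Spry1.

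Fgf1, a ligand that binds every FGF receptor, had 7 peaks between 11.1 kb upstream and 47.4 kb downstream of a TSS. Its highest, at 67.6, ranked 622 in the list and lay 47.4 kb downstream, in an intron of the overlapping gene Arhgap26. The other 6 scored 26.7, 19.6, 12.3, 11, 10.9 and 10.7. Arhgap26 introns hold all 7 peaks, and 3 of the 7 also lie within Fgf1, so assignment by the gene that holds the peak would leave Fgf1 with 3.

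Fgf20, a close relative of Fgf9, had a single peak, which scored 56.9 (rank 998) and lay 194.2 kb downstream with an ATAAACA core. Micu3 has its TSS 214.7 kb from the same peak, so the choice of Fgf20 rests on a small difference in distance. Fgf7, which like Fgf10 is made by mesenchyme for the Fgfr2 IIIb isoform, had 3 peaks with scores of 24.6, 17.0 and 16.7. The strongest lay 61.2 kb upstream in an intron of Galk2 with the strict form, and the one 72 bp from the TSS had no core. Fgf18, the ligand restrained by Foxf1 and Foxf2 in the palate, had 2 peaks, 68.8 and 155.5 kb downstream, with scores of 17.2 and 11.3. The TSS of Npm1 lay 85.1 kb from the first and that of Smim23 166.7 kb from the second, so the gene of both is uncertain. Both peaks had a core, of the ATAAATA form nearest the midpoint, and neither had the strict form. Fgf6, a ligand of skeletal muscle, had 1 peak at 24.2, while the peaks of Fgf2 and Fgf16 scored 12.2 and 11.8, in the lower part of the list. No peak was nearest to Fgf3, Fgf4, Fgf5, Fgf8, Fgf17 or Fgf22.

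Of the receptors, Fgfr2, the main epithelial receptor for mesenchymal FGFs in its IIIb form, held 20 of 26 peaks, more than any other FGF gene. Its 2 highest peaks, 13.2 kb upstream and 192.2 kb downstream of its TSS, scored 132.9 and 121.1 and ranked 48 and 72 in the list. They were followed by 53.0, 38.7, 38.2 and 38.2, and the remaining 14 scored between 10.6 and 28.4. In introns of the gene record, which reaches upstream of the main starts, lay 9 peaks, and 11 lay past its end, 88.5 to 199.6 kb beyond. A core was present in 15 and the strict form in 6. The peaks 301.0 to 303.4 kb downstream lay 371.0 to 373.3 kb from the TSS of Wdr11, so their gene is uncertain. Fgfr2 has a remote annotated start far upstream of the main ones, but none of the 20 peaks was nearest to it. They were nearest to the main starts, 17 at position 130266191 of chromosome 7 and 3 at 130266263. With 1 start per gene, taken at the end of the gene record, 2 peaks were nearest to Fgfr2. These are not among the 20, which all lie closer to a start of Ate1 or Wdr11 than to that remote start.

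Fgfr1, the mesenchymal receptor gene, had 4 peaks with scores of 23.3, 22.8, 19.0 and 12.4. All 4 lay upstream, 36.0 to 78.1 kb from the TSS, and all 4 had a core, with the strict form in 2. They lay in or at the start of the noncoding genes Gm31045 and Gm45237. Fgfr4 had 1 peak, at 27.3 with the strict form and 19.4 kb downstream, and Fgfr3 had 1, at 11.6 and 4.91 kb upstream. Fgfrl1, a receptor without a kinase domain, had none.

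Among the feedback genes, the ETS factors Etv1, Etv4 and Etv5 held 19 peaks and the inhibitors 31. Etv1 had 14 peaks over 532.4 kb, 13 of them downstream. Its 2 strongest scored 41.6 and 31.7 and the other 12 between 10.6 and 21.3. The strongest lay 123.5 kb downstream at the start of the noncoding gene Gm34611 and had no core, and the second lay in an Etv1 intron, 60.6 kb from the TSS, with ATAAACA. Cores were found in 10 of the 14. Etv5 had 3 peaks, with scores of 39.2, 23.7 and 17.8, and all had a core. The strongest lay 28 bp upstream of the TSS with the strict form. Etv4 had 2 peaks, at 30.4 and 10.9, 44.9 and 14.1 kb upstream, and neither had a core.

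Dusp6, which dephosphorylates ERK, had 9 peaks with scores of 32.7, 23.6, 19.7, 18, 16.6, 16.4, 13.2, 10.9 and 10.5. The highest lay 155 bp upstream of the TSS without a core, and its neighbour, 1.07 kb upstream, had the strict form. Another 4 lay 112.1 to 154.2 kb downstream in an intron of the noncoding gene B530045E10Rik. Spred2, an inhibitor of RAS activation, had 7 peaks. Its highest, at 92.0, ranked 219 and lay 176.1 kb upstream with 2 strict cores, while the other 6 scored from 10.6 to 18.9, so 1 peak stands apart from the rest at this gene. Spred1 had 2 peaks, at 27.6 and 14, both upstream and both with a core, and Spred3 had none. The higher-scored Spred1 peak lay 118.3 kb from the Spred1 TSS and 124.4 kb from that of Tmco5, so its gene is uncertain.

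Sprouty genes encode inhibitors of receptor tyrosine kinase signalling. Spry4 had 6 peaks, with scores of 35.1, 33.3, 32.5, 25.8, 12 and 11.7. Of these, 3 lay 77.4 to 88.2 kb downstream, each with a core. The highest-scored, 88.2 kb from the Spry4 TSS, lay 94.3 kb from that of Ndfip1, so its gene is uncertain. Spry2 had 4 peaks, with scores of 50.1, 36.0, 14.9 and 11.5, all past the end of the gene, 45.1 to 164.3 kb from the TSS. The 2 stronger had no core and the 2 weaker had one. Spry1 had 3 peaks, at 22, 11.8 and 10.2, all upstream, and the strongest, with the strict form, lay in an intron of Spata5.

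**Figure D3:**
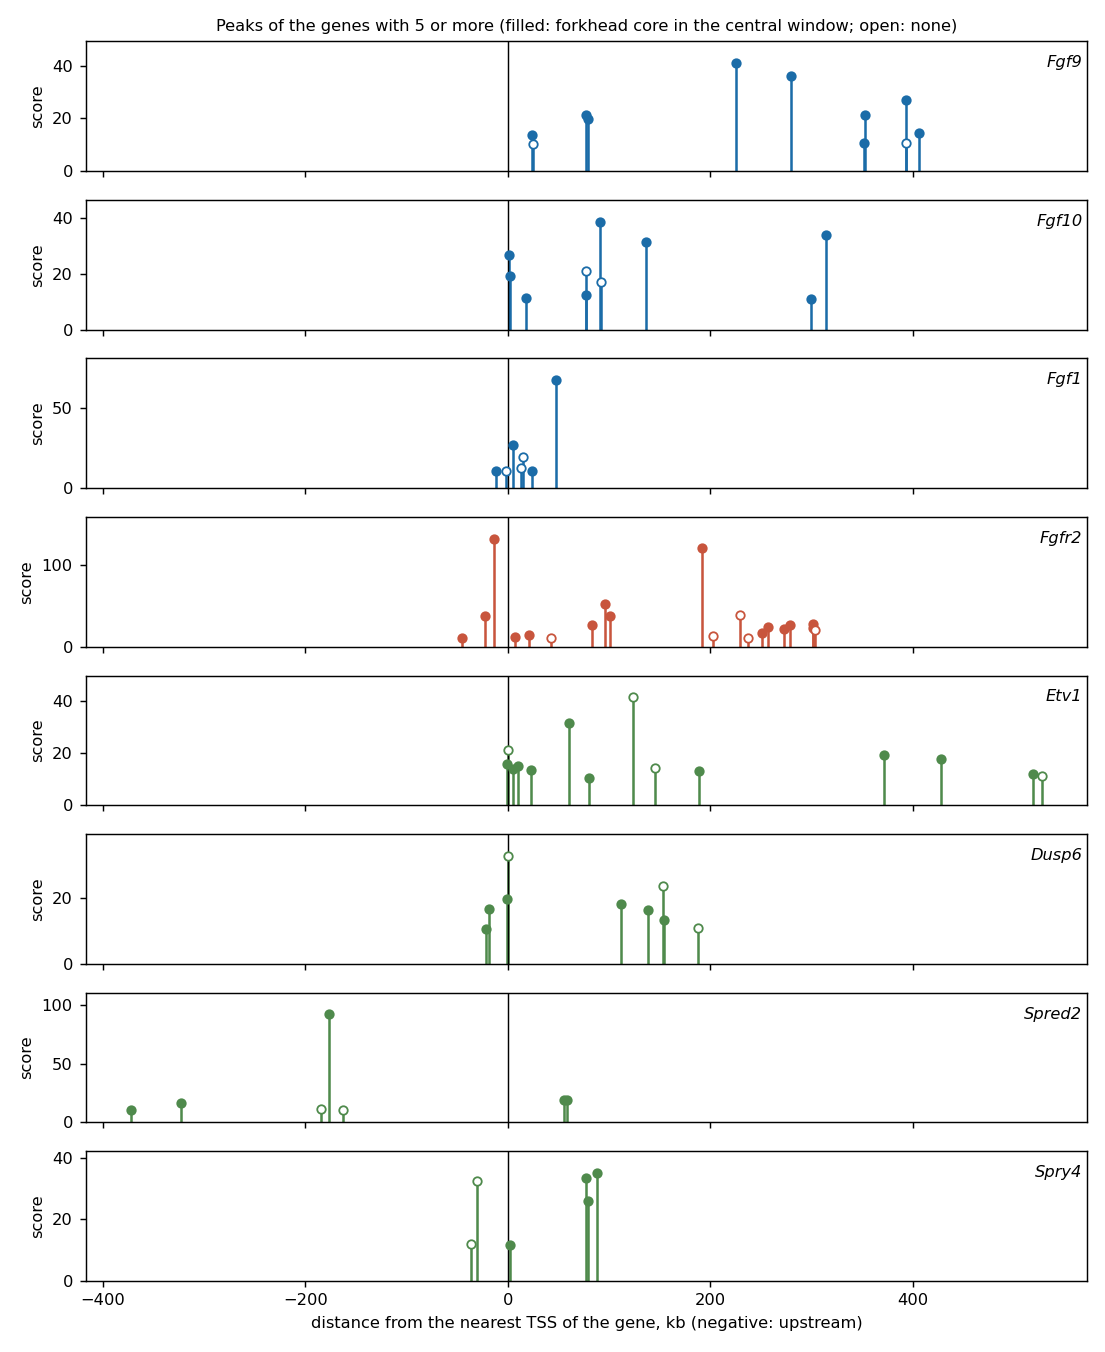
Score of each peak against its distance from the nearest TSS of its gene (kb, negative upstream), for the 8 FGF genes with 5 or more peaks, 1 panel per gene. Filled points have a forkhead core in the central 200 bp and open points have none. At Fgf9 and Fgf10 all peaks lie downstream, and at Spred2 the highest (92.0) lies 176.1 kb upstream.

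Peak scores at FGF genes were close to those of the list. Their median was 17.8 (95% interval 15.3 to 20.5), against 16.2 for the whole list. Medians were 17.1 for ligands, 23.1 for receptors and 16.5 for feedback genes, and 17.1 for all FGF genes without Fgfr2. Of the 26 receptor peaks, 20 lay at Fgfr2, with a median of 23.95. Among the highest-scored 10% of the list lay 12 FGF peaks (10.3%, 5.46 to 17.4), against 10% by construction. They lay at 9 genes, 4 of them at Fgfr2 and 1 each at Spred2, Fgf1, Fgf20, Spry2, Etv1, Fgf9, Etv5 and Fgf10. The one at Etv5 lay within 10 kb of the TSS, the others farther out. The median focus ratio was 0.782 at FGF genes and 0.783 over the list.

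The forkhead core was present in 85 of 116 FGF peaks (73.3%, 64.3 to 81.1), against 72.5% of the list. In 200-bp windows 2000 bp away, the share was 13.8% upstream and 19.0% downstream at FGF peaks, against 18.4% and 18.3% for the list. By class it was 75.0% for ligands, 80.8% for receptors and 68.0% for feedback genes, with intervals that overlap. The strict form was found in 32 (27.6%, 19.7 to 36.7), against 27.4% of the list. Of the cores nearest the midpoint, ATAAACA made up 50.6% at FGF genes against 45.3% in the list, GTAAACA 37.6% against 33.4%, ATAAATA 10.6% against 11.8%, and GTAAATA 1.18% (1 peak, at Fgfr2, with an interval up to 6.38%) against 9.50%. That core lay within 20 bp of the midpoint in 62.4% of FGF peaks with a core, against 72.1% in the list.

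Other short sequences were searched in the same windows. AGGAAGT or CGGAAGT, the sequence of ETS factors, occurred in 9 FGF peaks (7.76%, 3.61 to 14.2), against 6.2% of the list, and 6 of the 9 lay at feedback genes, 3 of them at Dusp6. The E-box CATCTG occurred in 26 (22.4%, 15.2 to 31.1) against 28%, and the E-box CAGCTG, bound by muscle bHLH factors among others, in 23 (19.8%, 13.0 to 28.3) against 18.7%. GGAATG, the sequence of TEAD factors, occurred in 8 (6.90%, 3.02 to 13.1) against 15.1%, with 8.33% without Fgfr2. By class it was in 1 of 40 ligand peaks (2.50%, at Fgf9), in 0 of 26 receptor peaks, for which the interval reaches 13.2%, and in 7 of 50 feedback peaks (14%, 5.82 to 26.7), close to the share of the list. The intervals given for these and other features were not adjusted for the number of features compared.

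FGF peaks lay mostly away from start sites. Within 10 kb of a TSS lay 18 (15.5%, 9.46 to 23.4), against 20.9% of the list, and beyond 100 kb lay 44 (37.9%, 29.1 to 47.4), against 33.8%. The median distance was 77.1 kb, against 51.3 kb. Downstream of the nearest TSS lay 81 (69.8%, 60.6 to 78.0), against 55.8%, with 82.5% for ligands, 69.2% for receptors, 60% for feedback genes and 66.7% for all FGF genes without Fgfr2. Of the 33 downstream ligand peaks, 11 lay at Fgf9 and 10 at Fgf10, so the ligand share rests largely on these genes. The nearest-TSS rule also bears on direction. Upstream of Fgf9 lies the TSS of Micu2, 99.8 kb from the Fgf9 peak that is 24.0 kb downstream. Most of the 574.1 kb territory of Fgf9 is therefore downstream. The upstream and downstream room of the genes was not compared. Between protein-coding genes lay 76 (65.5%, 56.1 to 74.1), against 51.6% of the list. In the gene itself lay 33 (28.4%, 20.5 to 37.6), against 38.8%, and in another protein-coding gene 7 (6.03%), against 9.58%. Noncoding genes held 20 FGF peaks (17.2%, 10.9 to 25.4), against 10.1% of the list, and start regions of noncoding genes 5 (4.31%), against 2.73%.

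A peak within 1 kb of a TSS was found at 5 of 37 FGF genes, against 10.2% of all genes, and these were Etv5, Dusp6, Etv1, Fgf7 and Spry1, with 6 peaks in all. A core was present in 2 of the 6 (Etv5, and Etv1 0.681 kb upstream), against 58.0% of the 2383 list peaks this close to a TSS. With 6 peaks, 2 of them a close pair at Etv1, this share is too uncertain to be set apart from that of the list. Dusp6 (32.7), Etv1 at 0.150 kb downstream (21.3), Fgf7 (17.0) and Spry1 (11.8) had none.

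Some FGF peaks came in close pairs. Another peak lay within 1 kb of 18 (15.5%, 9.46 to 23.4), against 5.59% of the list, and 16.7% without Fgfr2. They formed 9 pairs at 5 genes, 3 at Fgf10, 2 at Fgf9, 2 at Dusp6, and 1 each at Etv1 and Fgfr2. At Fgf10 the pairs lay 1.13 and 1.82 kb, 76.9 and 77.7 kb, and 91.2 and 92.0 kb downstream. Both peaks had a core in 2 of the 9 pairs, and 1 peak of the pair had it in the other 7. Each pair enters that share with both its peaks, so its interval is too narrow. With peaks within 1 kb of each other merged, 9 of 107 FGF regions (8.41%, 3.92 to 15.4) held more than 1 peak, against 2.84% of the regions of the list, and those 9 came from 5 genes.

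**Figure D4:**
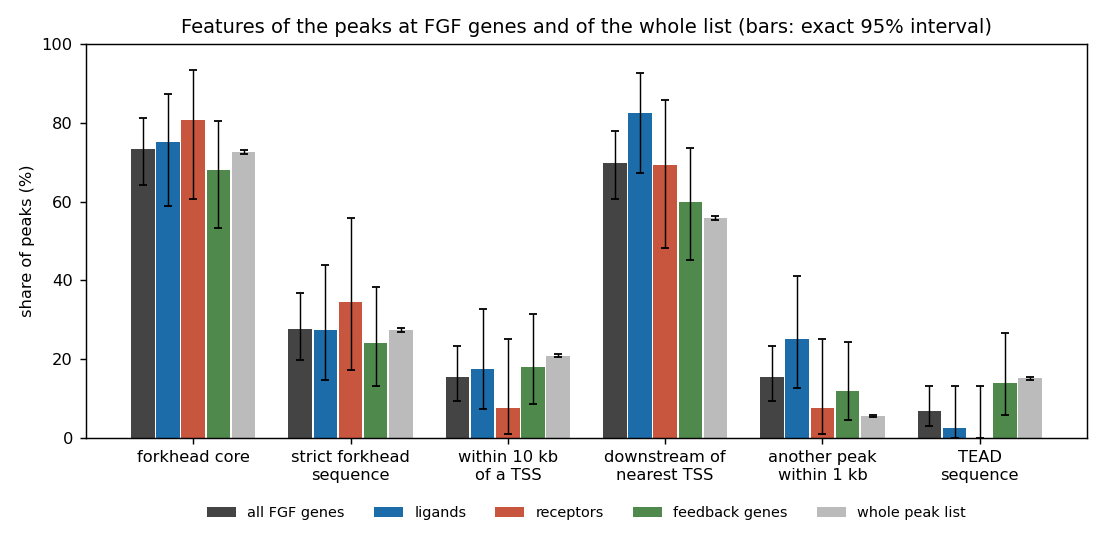
Share of peaks (%) with each of 6 features at all FGF genes, ligands, receptors, feedback genes and in the whole list, with exact 95% intervals. The forkhead core is in 73.3% of FGF peaks and 72.5% of the list, a close neighbour is found for 25% of ligand peaks, all at Fgf9 and Fgf10, and 5.59% of the list, and the TEAD sequence was found in none of the receptor peaks.

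The rest of the pathway was counted in 47 further genes, and 29 (61.7%) had a peak, against 37.3% of all protein-coding genes, with 184 peaks in all. This share and those of the groups below carry no interval. They were not matched to all genes for territory, which went along with the number of peaks. Among co-receptors and adaptors 7 of 16 (43.8%) had one, near the share of all genes. Most peaks there lay at Flrt2 (46), Flrt3 (19) and Kl (5), and with territories of 3206.7, 1253 and 185.6 kb these came to 1.43, 1.52 and 2.69 peaks per 100 kb, against 0.943 over the genome. Among genes that make or trim heparan sulfate or hold ligands, 9 of 12 (75%) had a peak. The sulfatases Sulf1 (15) and Sulf2 (13) and the sulfotransferase Hs2st1 (11) had the most, at 1.87, 4.41 and 6.02 peaks per 100 kb. Of other feedback genes 7 of 8 (87.5%) had one, with 20 at Lrig3, 10 at Dusp4 and 4 each at Il17rd and Rasa1, at 2.65, 2.47, 5.59 and 0.934 peaks per 100 kb. The core RAS and ERK cascade had 6 of 11 genes (54.5%) with a peak but 7 peaks in all, 2 of them at the ERK-activated kinase gene Rps6ka3 and 1 at each of the other genes with a peak.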

How the data were processed

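The 37 members and the lists of pathway genes were chosen with earlier results of these data known. Bowtie2 2.4.1 (alignment to mm10), SAMtools 1.7.1 and HOMER (peak calling against the input) are named per the submitters' processing notes and the series' design text. No version of HOMER is given in the sources used here. The authors deposited 1 table of 25707 peaks with a peak score and, per the file headers, a focus ratio or region size, read here as the focus ratio, a fraction between 0 and 1. No column belonged to a single library.

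Coordinates were used as deposited, without the 3 peaks of an unplaced contig. Each midpoint was placed with the nearest TSS of a GENCODE basic protein-coding transcript of mm10. Sequences were searched in the central 200 bp and 2000 bp to either side. Every FGF gene with a peak was named. Genes with 5 or more peaks, with a peak in the highest-scored 10% or with one within 1 kb of a TSS were described by their peaks, and of the pathway genes the 3 with the most peaks in each group were named, except in the RAS and ERK cascade, where genes tied at 1 peak are not named. The counting was tested on simulated data with planted peaks and motifs. Alternatives covered score, start site, gene type, gene body, distance, merging, window and motif form. Leaving out Fgfr2 was added after seeing the data. Computation used Python 3.11.15 with pyfaidx 0.9.0.4, scipy 1.17.1, numpy 2.4.6, matplotlib 3.10.9 and pandas 2.3.3.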

Additional observations from a re-analysis of the deposited data

How the results depend on the processing

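Of 41 alternative values for the 5 main results, 33 stayed within 1.5 times the reported count or within the 95% interval of the reported share or median. The number of FGF genes with a peak, 24, was 11 when peaks were limited to 10 kb of a TSS, 17 with the nearest gene of any type, 19 with scores at or above the list's median, and 23 or 24 under the other settings. The share of all protein-coding genes is not given for these settings. The counts therefore do not show whether the higher share of FGF genes with a peak holds under them. The 116 peaks became 66 with scores at or above the list's median, 40 with the nearest gene of any type, 72 within 100 kb and 18 within 10 kb. With the nearest gene of any type, noncoding genes take peaks, and 40.0% of the rest lay within 10 kb of a TSS, against 15.5%. The median score was 25.2 for peaks at or above the list's median, a cut that raises the median of any set by construction. The 75th percentile of the whole list was 24.5. The core share was 27.6% with the narrower GTAAACA. With 1 start per gene there were 98 peaks, not all of them among the 116, and with the gene that holds the peak placed first there were 126. These totals hide changes at single genes. Fgfr2 went from 20 peaks to 2 and to 36 in the 2 settings. With the holding gene first, Fgf1 went from 7 to 3 and Fgf7 from 3 to 1. Without Fgfr2 there were 96 peaks, at 23 genes.

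The counts are those of 1 peak list. Replicates could not be left out, and no paired analysis was possible because the table holds no value of a single library. Depth is unknown, so a gene without a peak is one where none was called. For 15 of the 116 peaks another gene's TSS lay within 25% of the distance again, which makes their gene uncertain. They include peaks at Fgf9, Fgf10 and Fgfr2. Shares with few peaks, such as those of receptors, carry wide intervals.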

Other observations

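Some peaks lay inside FGF genes but nearest to the TSS of another gene. Fgf2, a ligand gene that overlaps the antisense gene Nudt6, held a peak that scored 18 and had a core, 17.3 kb from the Nudt6 TSS, higher than the 12.2 of the peak nearest to Fgf2. The annotated record of Fgfr2, which reaches its remote start, spans 2960.9 kb and held 56 peaks, 47 of them nearest to other genes. The highest of these scored 115.9, 7.90 kb from the TSS of Chst15, a sulfotransferase gene, and had 2 cores. Others nearest to Ate1 scored 66.7 and 54.5.

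Of the 31 FGF peaks without a core, 9 (29.0%) held TAAACA and 4 (12.9%) held GCAAACA, against 29.6% and 8.74% of list peaks without a core. The median G+C share of the central window was 44.8% at FGF peaks and 43.5% over the list.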
